A study of Mus musculus with 9 samples.

Results

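The genes described here are 38 genes of DNA replication and nucleotide synthesis, measured in 9 bone marrow samples of mice with and without Abi1. They were taken by symbol from the array's probe annotation, and all 38 were found, each with 1 probeset, among 30142 genes that could be named and tested. By function they fall into origin licensing (5 genes), the replicative helicase (9), polymerases and the replication fork (14), nucleotide supply (4), and S phase entry with chromatin assembly (6). The cells were LSK cells, the lineage-depleted marrow cells that carry c-Kit and Sca-1 and hold the blood stem cells and earliest progenitors. All mice had floxed Abi1 alleles, Abi1(fl/fl), and all received poly(I:C) in 3 injections at 8 to 9 weeks of age, with marrow taken at 12 to 14 weeks. The 4 knockout (KO) mice also carried the Mx1-cre transgene, which poly(I:C) switches on, and the 5 wild-type (WT) mice did not, so an effect of Cre and one of the Abi1 deletion cannot be told apart. The Mx1 promoter responds to interferon and is not limited to LSK cells, and recombination was tested by PCR in marrow. Each array held amplified RNA of 1 mouse, with 5 ng of total RNA as input. The protein Abi1 is an adaptor in the WAVE complex, which builds branched actin, and the comparison asked which transcripts change when it is lost.

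A cell prepares to copy its genome in G1, when the origin recognition complex, Cdc6 and Cdt1 load the Mcm helicase onto origins. At the start of S phase Cdc45 and the GINS proteins join the Mcm ring to form the active helicase, DNA polymerase alpha and its primase lay down primers, and polymerases delta and epsilon extend them on the Pcna clamp. Ribonucleotide reductase, thymidylate synthase and thymidine kinase supply the nucleotides, and many of the genes are switched on together by E2F transcription factors. Most adult stem cells rest outside the cycle while the progenitors beside them in the LSK gate divide often.

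Start-site sequences are shown first, because E2F and other cell-cycle elements near the start are known for many genes of this kind. Whether such elements bear on how the genes varied among the arrays was not tested. RefSeq windows of 300 bases (250 before to 50 after the start, assembly GRCm38.p6) were at hand for 32 of the 38 genes, 37 windows in all, and not for Mcm4, Gins1, Gins2, Prim2, Pole and Ccne2. An E2F site, searched on both strands as TTTCCCGC or as TTTCGCGC or as TTTGCCGC or as TTTGGCGC, was in 11 of the 37 windows (29.7%) and in 744 of all 32851 windows of the table (2.26%). The CCAAT box, searched as CCAAT, was in 62.2% of the replication windows and 37.4% of all windows. For the GC box, searched as GGGCGG, the shares were 70.3% and 35.7%. The CHR element, searched as TTTGAA, was in 8.11% and 17.9%. The replication windows also held more G and C, with a median of 58.3% against 52.7% for all windows, and the part of base composition in these shares was not tested. A match describes letters only and is not evidence of binding.

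The 11 genes with an E2F match were Orc1, Cdc6 and Cdt1 of the 5 origin genes, Mcm3, Mcm5 and Mcm6 of the 6 helicase genes with a window, Pola1, Pold1, Rfc3 and Lig1 of 12 such polymerase and fork genes, and Uhrf1 of 5 such genes of the S phase class. None of the 4 nucleotide supply genes had one. There were 16 matches in all, 10 of them before the start, and none overlapped a CCAAT box, GC box or CHR element, though some overlapped each other. The 250 bases before the start are printed for the gene of each class with the brightest signal, with every match to any of the 4 motif kinds in capitals. Mcm6 carries 3 E2F matches, 2 of which share bases at -110 to -99 (the base before the start is -1), and the third lies at -47 to -40. The windows of Orc6, Pcna and Tyms and the first listed of 2 windows of Uhrf1 carry none, and their capitals are CCAAT and GC boxes.
Orc6 (origin licensing, chr8:85299382-85299631, plus strand): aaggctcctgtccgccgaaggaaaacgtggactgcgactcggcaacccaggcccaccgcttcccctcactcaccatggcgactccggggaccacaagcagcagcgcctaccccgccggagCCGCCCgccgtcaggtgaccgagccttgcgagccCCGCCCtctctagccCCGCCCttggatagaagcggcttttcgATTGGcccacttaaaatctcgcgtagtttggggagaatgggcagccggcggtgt
Mcm6 (helicase, chr1:128359706-128359955, minus strand): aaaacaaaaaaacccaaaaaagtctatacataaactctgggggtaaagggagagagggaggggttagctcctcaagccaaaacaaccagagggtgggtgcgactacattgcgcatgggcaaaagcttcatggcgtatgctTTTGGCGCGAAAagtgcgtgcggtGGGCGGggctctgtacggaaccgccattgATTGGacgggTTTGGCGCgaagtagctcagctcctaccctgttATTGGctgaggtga
Pcna (polymerase and fork, chr2:132253181-132253430, minus strand): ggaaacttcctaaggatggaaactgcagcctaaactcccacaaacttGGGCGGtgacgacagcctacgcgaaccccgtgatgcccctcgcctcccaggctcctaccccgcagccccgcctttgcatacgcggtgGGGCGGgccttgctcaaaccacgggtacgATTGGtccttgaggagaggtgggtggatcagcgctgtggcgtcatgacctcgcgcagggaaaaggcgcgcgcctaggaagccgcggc
Tyms (nucleotide supply, chr5:30073626-30073875, minus strand): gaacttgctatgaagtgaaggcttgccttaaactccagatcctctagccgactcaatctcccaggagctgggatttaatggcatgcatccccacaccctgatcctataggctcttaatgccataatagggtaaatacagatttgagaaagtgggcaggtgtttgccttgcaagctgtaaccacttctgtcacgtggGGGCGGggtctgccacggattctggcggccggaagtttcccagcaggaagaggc
Uhrf1 (S phase and chromatin, chr17:56303087-56303336, plus strand): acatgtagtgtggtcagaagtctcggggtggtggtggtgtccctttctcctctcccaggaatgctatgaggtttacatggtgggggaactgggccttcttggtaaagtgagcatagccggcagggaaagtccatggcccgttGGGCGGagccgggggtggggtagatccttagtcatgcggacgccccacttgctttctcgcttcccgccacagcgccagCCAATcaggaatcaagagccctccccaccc

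The E2F matches before the start of 5 other genes are shown in stretches of 60 bases, in the same capitals, to set the shared core beside its differing flanks. In Mcm5 a pair of matches overlap in opposite directions, as in Mcm6.
Orc1 (chr4:108579394-108579453, plus strand): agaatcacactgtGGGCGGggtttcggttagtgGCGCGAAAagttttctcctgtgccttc
Cdc6 (chr11:98907987-98908046, plus strand): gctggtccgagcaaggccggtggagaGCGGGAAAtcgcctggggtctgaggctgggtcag
Mcm5 (chr8:75109332-75109391, plus strand): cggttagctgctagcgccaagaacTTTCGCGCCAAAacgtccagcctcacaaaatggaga
Pola1 (chrX:93632260-93632319, minus strand): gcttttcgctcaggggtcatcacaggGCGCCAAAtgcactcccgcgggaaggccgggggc
Rfc3 (chr5:151651209-151651268, minus strand): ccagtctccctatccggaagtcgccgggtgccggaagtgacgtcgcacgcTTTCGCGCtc

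Abi1 followed the labels. It read 5.59 to 6.11 in the KO arrays and 11.49 to 11.65 in the WT arrays on the log2 scale, a difference of -5.73 (SE 0.0954, limma adjusted p = 7.42e-08). Kit, the gene of c-Kit, read 13.82 in KO array 1 and 14.39 to 14.78 in the other 8 arrays. Ly6a, which encodes Sca-1, was not analysed here, since it had no probeset of its own. In 2 arrays the profile stood apart from the rest: the median correlation with the other arrays was 0.986 for KO array 1 and 0.989 for WT array 5, and 0.993 to 0.996 for the other 7. Both are kept in the values given, and several of the results are also given without 1 or both of them.

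All 38 genes were above the background level, which is the signal that 95% of olfactory and vomeronasal receptor genes stayed under (5.29 to 5.64 by array), in every array. Their signals ran from 6.65 (Fen1 in WT array 5) to 15.46 (Pcna in KO array 1), and probes differ in brightness, so levels are not compared between genes. Tested with limma over all 30142 genes, none of the 38 differed between KO and WT at an adjusted p under 0.05, where 1 gene of all (0.00332%), Abi1, did. The adjusted p values of the 38 ran from 0.786 to 0.995. None had an unadjusted p under 0.05 either, against 5.01% of all genes, and none had KO and WT arrays that did not overlap, against 0.856% of all genes. By exact permutation of the array labels the smallest p among them was 0.103, for Chaf1a, and the design allows 0.00794.

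The direction leaned lower. In 26 of the 38 genes the KO mean was below the WT mean, against 35.4% of all genes and 45.5% of genes above background, and the median difference was -0.046 on the log2 scale, against 0.03 for all genes. With each array centred on its median, which shifts all genes alike, 32 of 38 were lower against 57.5% of genes above background. The lean depended on which arrays were kept: without KO array 1, 13 of 38 were lower and the median was 0.03, and without WT array 2, 20 were lower and the median was -0.0075. Without WT array 5, 32 were lower with a median of -0.13, and without both arrays 24 were lower with a median of -0.039. The 95% intervals show how much change the arrays leave room for. In 18 genes the interval lay within 0.5 of 0 on the log2 scale, and in 35 within 1, the exceptions being Mcm2, Pold1 and Ccne1.

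**Figure D1:**
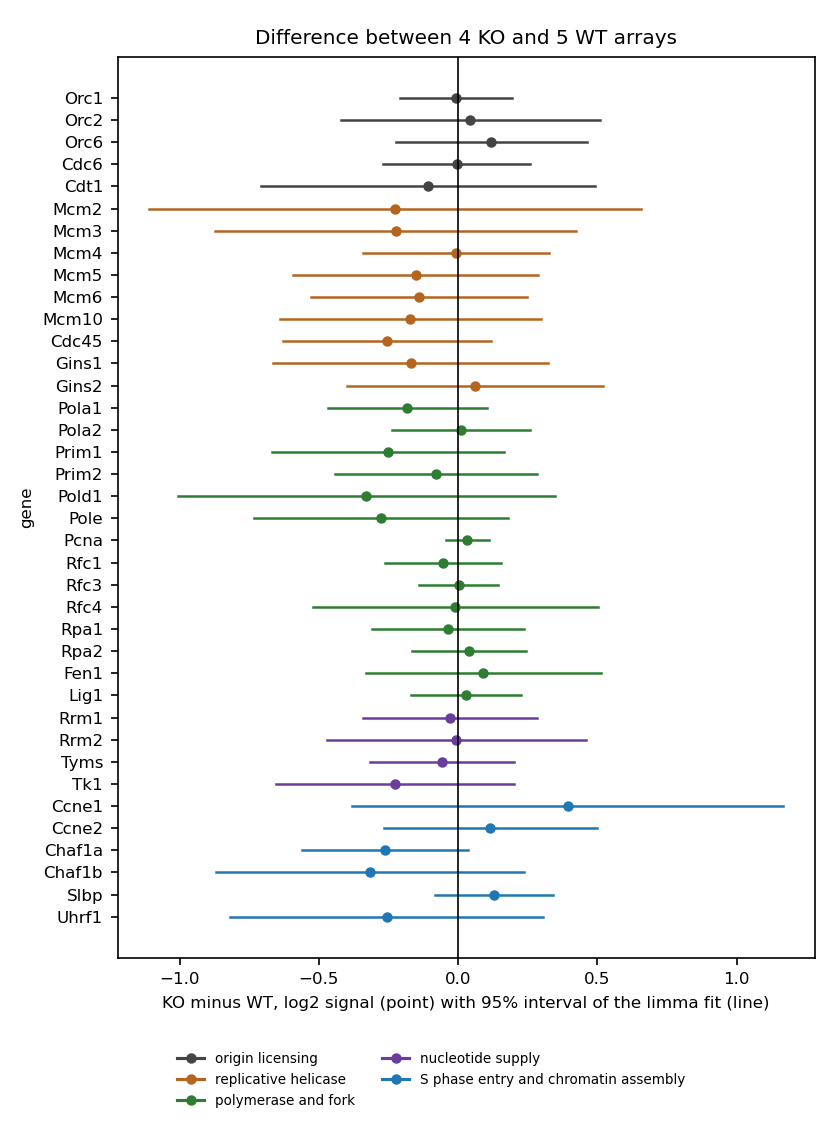
Difference in mean log2 signal between 4 KO and 5 WT arrays (horizontal axis) for each of the 38 genes (vertical axis), with the 95% interval of the limma fit as a line and colour for the functional class. Every interval spans 0, the points run from -0.33 (Pold1) to 0.39 (Ccne1), and the widest interval is that of Mcm2 (SE 0.386).

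Origin licensing genes sat at nearly the same level in both groups. Of the 5 genes, 3 had a lower and 2 a higher mean in KO, with a median difference of -0.0055. Quantile normalization turned that median to 0.04 with 4 genes higher, and without KO array 1 all 5 were higher. Orc6, a subunit of the origin recognition complex, read 11.58, 11.27, 11.32 and 11.22 in KO arrays 1 to 4 and 11.20, 11.24, 11.62, 11.27 and 10.81 in WT arrays 1 to 5. KO array 1 was its highest KO value and WT array 5 its lowest value of all, and the groups overlapped. Its difference of 0.12 (SE 0.15, limma adjusted p = 0.812, exact permutation p = 0.421) was the largest of the class in size. Cdt1, which brings the Mcm ring to the origin and is named here after its values were seen, read 7.78, 8.80, 9.17 and 8.79 in KO arrays 1 to 4 and 8.77, 8.99, 8.71, 8.85 and 8.39 in WT arrays 1 to 5. KO array 1 differed by -1.14 from the mean of the other KO arrays, the widest gap of the class, and the remaining 8 arrays stayed between 8.39 and 9.17. Differences were -0.007 for Orc1 and 0.04 for Orc2, both subunits of the same complex, and -0.0055 for Cdc6, the ATPase that helps load the helicase.

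The replicative helicase genes had lower KO means in all but 1 case and the widest range of array scores. In 8 of 9 the KO mean was lower (median difference -0.17), and Gins2 at 0.06 was the other. None passed the test, and without KO array 1 only 2 of 9 were lower, with a median of 0.05. Mcm6, the Mcm subunit with the brightest probe, read 13.59, 14.07, 14.33 and 14.15 in KO arrays 1 to 4 and 14.15, 14.48, 14.15, 14.27 and 13.83 in WT arrays 1 to 5. Its 2 low arrays were KO array 1 and WT array 5, and the other 3 KO arrays lay within the range of the other WT arrays apart from KO array 2, just under them. The difference was -0.14 (SE 0.169, limma adjusted p = 0.806, exact permutation p = 0.476). Cdc45, which joins the Mcm ring when an origin fires, read 10.09, 10.43, 10.53 and 10.12 in KO arrays 1 to 4 and 10.43, 10.70, 10.73, 10.79 and 10.09 in WT arrays 1 to 5. It was low in KO arrays 1 and 4 and in WT array 5, and its 3 highest values were all WT. Its difference of -0.26 (SE 0.163, limma adjusted p = 0.786, exact permutation p = 0.23) was the largest of the class and had the smallest p.

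Mcm2 and Mcm3, core subunits of the Mcm ring named here after their values were seen, had the widest gaps between KO array 1 and the other KO arrays. Mcm2 read 11.74, 13.22, 13.50 and 13.22 in KO arrays 1 to 4 and 13.32, 13.55, 13.02, 13.44 and 12.40 in WT arrays 1 to 5. The group means differed by -0.23 (SE 0.386), and KO array 1 alone differed by -1.57 from the mean of the other KO arrays, which sat among the WT values. Without KO array 1 the Mcm2 difference was 0.17. Mcm3 read 12.62 in KO array 1 and 13.55 to 14.12 in the other 8 arrays. Mcm4 and Mcm5, further subunits of the ring, differed by -0.0075 and -0.15. Mcm10, which helps activate the helicase, differed by -0.17, and Gins1, a GINS subunit, by -0.17. With KO array 1 and WT array 5 left out together, 6 of 9 helicase genes were lower in KO, with a median of -0.031.

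Polymerase and fork genes showed no common direction as deposited. Of the 14, 8 had a lower and 6 a higher KO mean, with a median of -0.024, and 11 were lower with quantile normalization. Without KO array 1, 6 of 14 were lower, with a median of 0.02. With centred arrays, where 57.5% of genes above background were lower, 13 of 14 were. Pcna, the sliding clamp, read 15.46, 15.35, 15.38 and 15.39 in KO arrays 1 to 4 and 15.34, 15.38, 15.38, 15.38 and 15.33 in WT arrays 1 to 5. The 9 values lay within 0.13 of each other, the narrowest range of the 38, with KO array 1 on top and the groups overlapping. Its difference was 0.03 (SE 0.034, limma adjusted p = 0.789, exact permutation p = 0.198). Pola1, the catalytic subunit of polymerase alpha, read 10.77, 10.57, 11.04 and 10.94 in KO arrays 1 to 4 and 10.94, 11.27, 10.94, 11.14 and 10.77 in WT arrays 1 to 5. KO array 2 was its lowest and WT array 2 its highest, and 3 of 4 KO values fell inside the WT range. Its difference was -0.18 (SE 0.125, limma adjusted p = 0.786, exact permutation p = 0.222), and it had the smallest limma p of the class before adjustment (0.182). Pold1, the catalytic subunit of polymerase delta, read 9.59, 10.67, 10.87 and 10.56 in KO arrays 1 to 4 and 10.74, 11.30, 10.38, 10.98 and 10.36 in WT arrays 1 to 5. KO array 1 was lowest and WT array 2 highest by a clear step, and the other 7 arrays mixed. Its difference, -0.33 (SE 0.296, limma adjusted p = 0.786, exact permutation p = 0.389), was the furthest below 0 of all 38. Without KO array 1 the Pold1 difference was -0.052.

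The other catalytic and priming genes lay below 0 as well or near it. Pole, the catalytic subunit of polymerase epsilon, differed by -0.28, the primase subunits Prim1 and Prim2 by -0.25 and -0.079, and Pola2, the second subunit of polymerase alpha, by 0.0095. Prim1 read 10.52 in KO array 1 and 11.33 to 11.59 elsewhere. Without KO array 1 the differences were -0.082 for Pole and -0.035 for Prim1. Clamp loader and strand-processing genes were closer to 0: Rfc1 -0.054, Rfc3 0.002 and Rfc4 -0.0095 (clamp loader), Rpa1 -0.037 and Rpa2 0.04 (single-strand binding), Fen1 0.09 (flap removal) and Lig1 0.03 (ligation). Rfc4 and Fen1 followed WT array 5 rather than KO array 1: Rfc4 read 11.41 in WT array 5 and 11.94 to 12.62 in the rest, and Fen1 6.65 against 7.17 to 7.67.

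Nucleotide supply genes were slightly lower in KO in 4 of 4 (median -0.044), in 3 of 4 with quantile normalization, and in 2 of 4 without KO array 1. Tyms, thymidylate synthase, read 12.24, 12.16, 12.34 and 12.31 in KO arrays 1 to 4 and 12.19, 12.46, 12.54, 12.43 and 11.99 in WT arrays 1 to 5. All 4 KO values lay inside the WT range, and WT array 5 was lowest. The difference was -0.06 (SE 0.113, limma adjusted p = 0.869, exact permutation p = 0.643). Tk1, the S phase thymidine kinase, read 8.04, 8.68, 8.69 and 8.66 in KO arrays 1 to 4 and 8.29, 9.07, 8.83, 8.84 and 8.69 in WT arrays 1 to 5. KO array 1 and WT array 1 were its low arrays, KO arrays 2 to 4 were within 0.03 of each other, and WT array 2 was highest. Its difference of -0.23 (SE 0.187, limma adjusted p = 0.786, exact permutation p = 0.302) was the largest of the class and had its smallest p. Without KO array 1 the Tk1 difference was -0.067. The ribonucleotide reductase subunits Rrm1 and Rrm2 differed by -0.028 and -0.0075.

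S phase entry and chromatin assembly genes had means on both sides of 0. The cyclins Ccne1 and Ccne2, which drive entry into S phase, and Slbp, which binds histone mRNA, had higher KO means, and the chromatin genes Chaf1a, Chaf1b and Uhrf1 lower ones. None of the 6 passed the test. Without KO array 1 the differences were -0.028 for Chaf1b, -0.0027 for Uhrf1, 0.02 for Slbp and 0.038 for Ccne2. Chaf1a was then at -0.14, against -0.26 with all arrays, and Ccne1 at 0.39, as with all arrays. Uhrf1, which links new DNA to maintenance methylation, read 10.81, 11.69, 12.00 and 11.78 in KO arrays 1 to 4 and 11.84, 12.18, 11.62, 11.98 and 11.51 in WT arrays 1 to 5. KO array 1 stood lowest and the groups overlapped otherwise. Its difference was -0.26 (SE 0.246, limma adjusted p = 0.786, exact permutation p = 0.444). Chaf1a, the large subunit of chromatin assembly factor 1, read 9.77, 10.11, 10.41 and 10.29 in KO arrays 1 to 4 and 10.33, 10.56, 10.33, 10.54 and 10.28 in WT arrays 1 to 5. Its 2 lowest values were KO arrays 1 and 2, and its 2 highest were WT arrays 2 and 4. The difference of -0.26 (SE 0.13, limma adjusted p = 0.786, exact permutation p = 0.103) had the smallest p of all 38. Chaf1b, its partner subunit, is named after its values were seen: it read 9.16 in KO array 1 and 10.21 to 10.56 in the other 8 arrays, with a difference of -0.32.

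Ccne1, cyclin E1, read 9.64, 9.24, 10.02 and 9.62 in KO arrays 1 to 4 and 9.83, 9.47, 9.82, 8.71 and 8.35 in WT arrays 1 to 5. The 2 lowest arrays were WT arrays 4 and 5, and the other 7 arrays mixed. Its difference of 0.39 (SE 0.338, limma adjusted p = 0.786, exact permutation p = 0.357) was the largest of the 38 in size, with an interval from -0.38 to 1.17. For Ccne1, WT array 5 differed by -1.11 from the mean of the other WT arrays. With the replicate number as a block, which leaves WT array 5 without a partner, the Ccne1 difference was 0.17. Slbp, named after its values were seen, read 9.80 in 7 of 9 arrays, 10.23 in KO array 1 and 9.70 in WT array 1. Ccne2 held 1 value, 9.68, in 5 of 9 arrays. Identical values in at least 5 of the 9 arrays were found in 13.2% of genes above background, and they lower the spread that is measured.

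**Figure D2:**
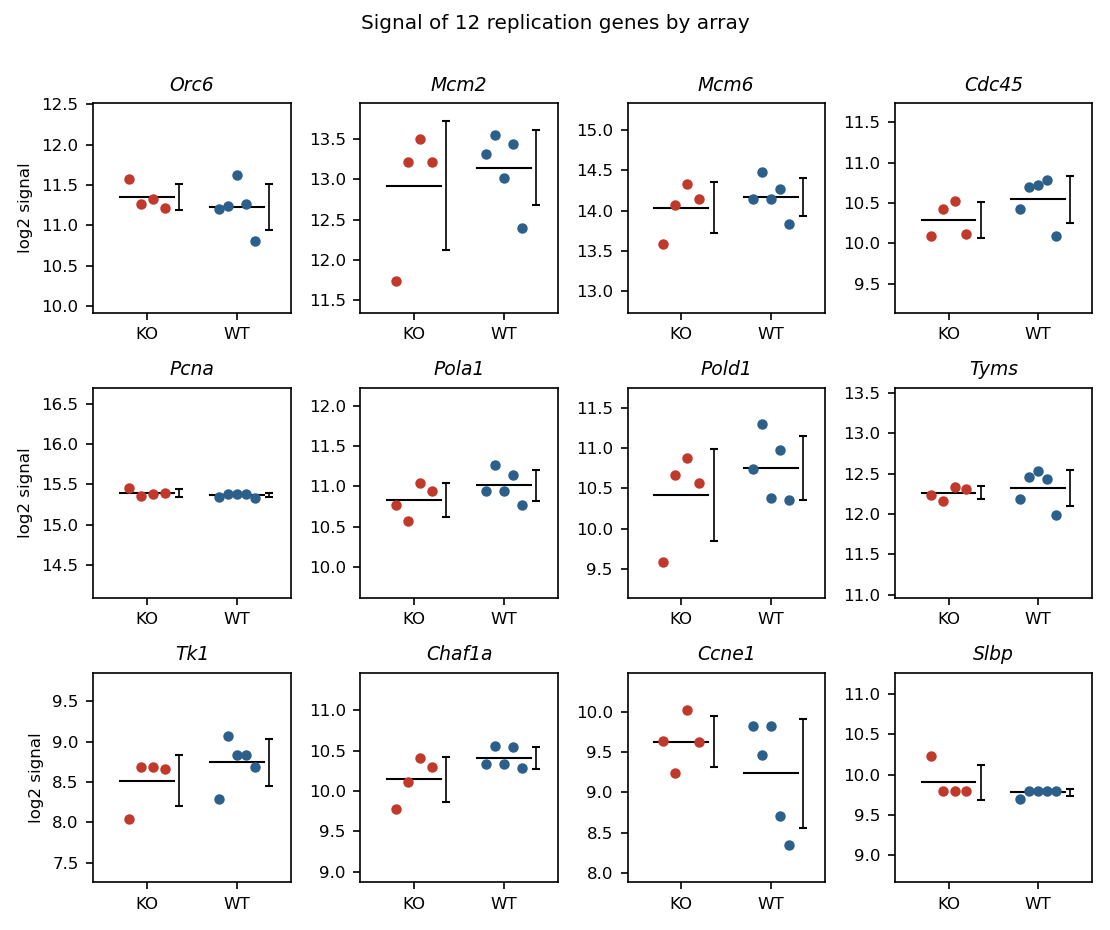
Log2 signal (vertical axis, every panel has the same span) of 12 of the genes in 4 KO (red) and 5 WT (blue) arrays, each point 1 mouse, in replicate order within a group, with the group mean as a black line and the SD as a bar beside it. KO array 1, the leftmost red point, is the lowest of all in Mcm2, Mcm6, Pold1, Tk1 and Chaf1a and ties for lowest in Cdc45. It is the highest in Pcna and Slbp, and Pcna varies least.

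Across the arrays, most of the genes were high in the same mice and low in the same mice, within both genotypes. KO array 1 was below every other KO array in 28 of 38 genes, against 34.8% of genes above background, with a median gap of -0.44 to the mean of the other KO arrays. In the helicase class it was lowest in 9 of 9. It was above the other KO arrays in 5, Orc6, Pcna, Rfc1, Ccne2 and Slbp. WT array 5 was below every other WT array in 32 of 38, against 35.7% of genes above background, with a median gap of -0.39, and again in 9 of 9 helicase genes. Among all 9 arrays WT array 2 held the highest value of 19 genes and KO array 3 that of 8. KO array 3 was above the 9-array mean in 36 of 38 genes.

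As a mean deviation over all 38 genes from their 9-array means, KO arrays 1 to 4 scored -0.37, -0.003, 0.19 and 0.02, and WT arrays 1 to 5 scored -0.0086, 0.24, 0.12, 0.10 and -0.28. Each genotype thus held a low array and a high one. The helicase class scored -0.65, 0.07, 0.24 and 0.03 in KO and 0.05, 0.31, 0.15, 0.18 and -0.37 in WT, the widest range of the 5 classes. The SD within a group was larger in KO in 24 of 38 genes, against 52.6% of genes above background. Without KO array 1 it was larger in KO in 6 of 38, against 25.5%.

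**Figure D3:**
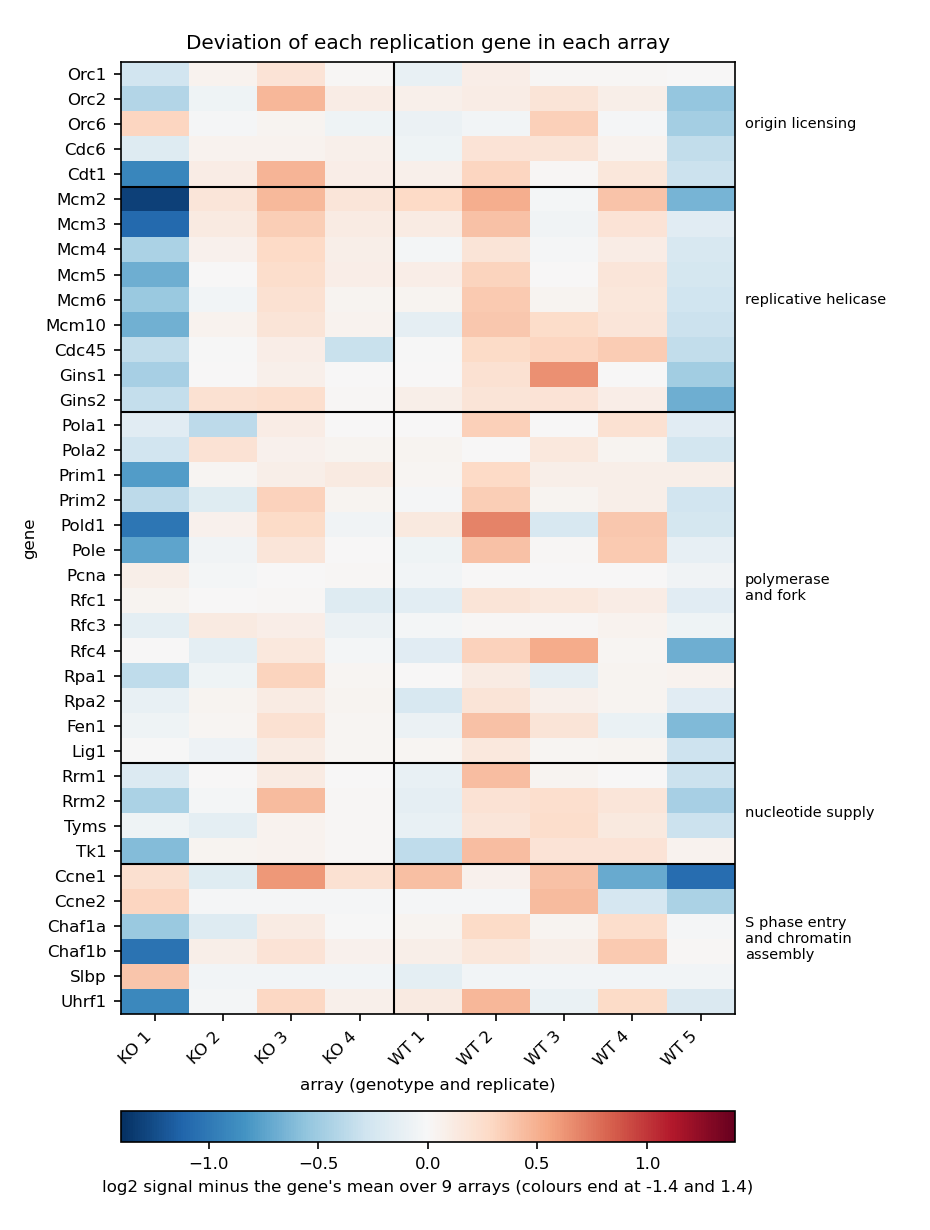
Deviation of each gene (rows, by class) from its own mean over 9 arrays, on the log2 scale, in each array (columns, KO left and WT right of the line); blue is below and red above the mean. KO array 1 and WT array 5 are blue for most genes, and WT array 2 and KO array 3 are red. In KO array 1, 7 genes are above their mean: Orc6, Pcna, Rfc1, Rfc4, Ccne1, Ccne2 and Slbp.

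Over the 9 arrays the median Pearson r between members was 0.60 over 703 pairs, of which 606 were above 0, and the median over all pairs of genes above background was 0.019. All pairs share the same 9 arrays, their RNA amounts and their normalization, so these values describe the arrays and carry no test. With deviations taken from each group's own mean the median was 0.64. The helicase class had the highest median r (0.79, 36 of 36 pairs above 0), followed by nucleotide supply (0.69), origin licensing (0.58) and polymerase and fork (0.51), and the S phase class had a median of -0.12. Without KO array 1 the median over members was 0.58, and without both distant arrays 0.42. Over those 7 arrays the order of the classes changed. Nucleotide supply had the highest median (0.607), then the helicase class (0.474, 32 of 36 pairs above 0) and polymerase and fork (0.465).

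Each gene was also set against the mean of the other members. Mcm6 followed that mean most closely (r = 0.97), then Mcm10 (0.958), Rrm2 (0.942) and Mcm4 (0.933), and 17 of 38 genes had an r over 0.8 (7 of 38 without KO array 1 and WT array 5). Slbp at -0.65 and Pcna at -0.24 ran against it. Without KO array 1 no gene was under 0, with Pcna at 0.78 and Slbp at 0.13, so their opposite course rested on that array.

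Other genes of the same pathways were measured in 78 of 83 cases, all above background. Of these, 52 had a lower KO mean, against 45.5% of genes above background, and 26 a higher one (median -0.064). In limma 1 had an unadjusted p under 0.05 (5.01% of all genes did) and none passed after adjustment. With centred arrays 60 were lower (57.5% of genes above background were), and without KO array 1 37 of 78. Among helicase partners 8 of 8 were lower, 7 of 8 with quantile normalization and 5 of 8 without KO array 1. Wdhd1, which couples the helicase to polymerase alpha, had the smallest p of these at a difference of -0.40 (limma unadjusted p = 0.0559). Among the other origin and firing genes 7 of 9 were lower, with the smallest p for Topbp1, a firing factor, at -0.19 (limma unadjusted p = 0.0953). Of the other polymerase and fork genes 8 of 14 were lower, and Top2a, topoisomerase II alpha, had the smallest p at -0.30 (limma unadjusted p = 0.0831).

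Nucleotide synthesis genes outside the 38 were lower in 21 of 29. Dguok, a mitochondrial deoxyguanosine kinase, was the gene with an unadjusted p under 0.05: it differed by -0.14 (limma unadjusted p = 0.0305, adjusted p = 0.786). Among chromatin assembly genes and S phase regulators 8 of 18 were lower (12 of 18 with centred arrays), and E2f1, an activating E2F factor, had the smallest p at 0.17 (limma unadjusted p = 0.0531). Listed genes without a probeset of their own were not analysed here.

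Markers of other states and cell types also varied among the arrays, not all of them in the same arrays as the replication genes. Their part in the values above was not tested. In bulk RNA, fewer cells of a type and less RNA per cell cannot be told apart. Mitosis genes had a lower KO mean in 14 of 16 (median -0.28), against 45.5% of genes above background, and in 13 of 16 without KO array 1. Of the 16 mitosis genes, 1 had a limma unadjusted p under 0.05 (5.01% of all genes did) and none passed after adjustment. Their mean level ran from 10.44 to 11.02 in KO and from 10.72 to 11.38 in WT, lowest in KO array 1. WT arrays 2 and 3 stood high for mitosis genes, with mean deviations of 0.46 and 0.43, and of the pair it was WT array 2 that also stood highest for the replication genes. Quiescence genes had a higher KO mean in 7 of 8 (6 of 8 with centred arrays, 5 of 8 without KO array 1) and a mean deviation of -0.48 in WT array 3. As deposited, 35.4% of all genes were lower in KO, so a higher mean was the usual direction. Of the 8 quiescence genes, 2 had a limma unadjusted p under 0.05 (1 without KO array 1), against 5.01% of all genes. None of them passed after adjustment. Stem cell genes had a lower KO mean in 6 and a higher one in 3 of 9 (median -0.089). Of the 9, 1 had a limma unadjusted p under 0.05 (5.01% of all genes did) and none passed after adjustment.

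As deposited, 35.4% of all genes and 45.5% of genes above background had a lower KO mean, so a higher mean was the usual direction. With quantile normalization 46.5% of all genes were lower, and with centred arrays 55.9%. Mature neutrophil genes had a higher KO mean in 10 of 10, and in 9 of 10 with quantile normalization or centred arrays. Of the 10, 2 had a limma unadjusted p under 0.05 (none without KO array 1), against 5.01% of all genes, and none passed after adjustment. Their mean level was 7.91 in KO array 1 and 7.73 in KO array 2, while KO arrays 3 and 4 read 5.73 and 6.06, and WT arrays ran from 5.35 to 6.48. S100a8 read 12.58 and 10.87, S100a9 12.50 and 11.29, Ngp 9.16 and 10.06 and Camp 9.14 and 9.03 in KO arrays 1 and 2, and these 4 genes did not pass 8.83 in any other array. By mean over all arrays Lcn2, Retnlg, Mmp8 and Mmp9 were not above background. In single arrays Lcn2 was above it in KO arrays 1 (6.0) and 2 (5.6), and Retnlg (6.11) and Mmp8 (5.39, background 5.362) in KO array 2. Erythroid genes had a mean level of 7.02 in WT array 5 and 9.29 to 10.75 in the other 8 arrays, and megakaryocyte genes one of 7.91 there against 9.56 to 10.29. Granulocyte-monocyte progenitor genes had a higher KO mean in 9 of 10 (median 0.54), and none passed after adjustment. Of the 10, 5 had a limma unadjusted p under 0.05, against 5.01% of all genes. That count was 2 without WT array 5 and 2 without both KO array 1 and WT array 5. The mean level of these genes ran from 11.11 to 11.63 in KO and from 10.47 to 11.31 in WT. B cell genes had a higher KO mean in 8 of 8, in 6 of 8 with quantile normalization or centred arrays, and in 7 of 8 without KO array 1. Of the 8, 5 had a limma unadjusted p under 0.05 (5.01% of all genes did) and none passed after adjustment. As deposited, their mean level of 5.79 to 5.85 in KO did not overlap the 5.42 to 5.62 in WT, and both lay near the background level of 5.29 to 5.64. Of the 8, Vpreb3, Igll1, Ms4a1 and Pax5 were not above background by their mean, and Vpreb3 and Igll1 were among the 5 named by p. T and NK cell genes were at 4.94 to 5.27, with Cd3e, Cd4, Cd8a and Ncr1 not above background.

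**Figure D4:**
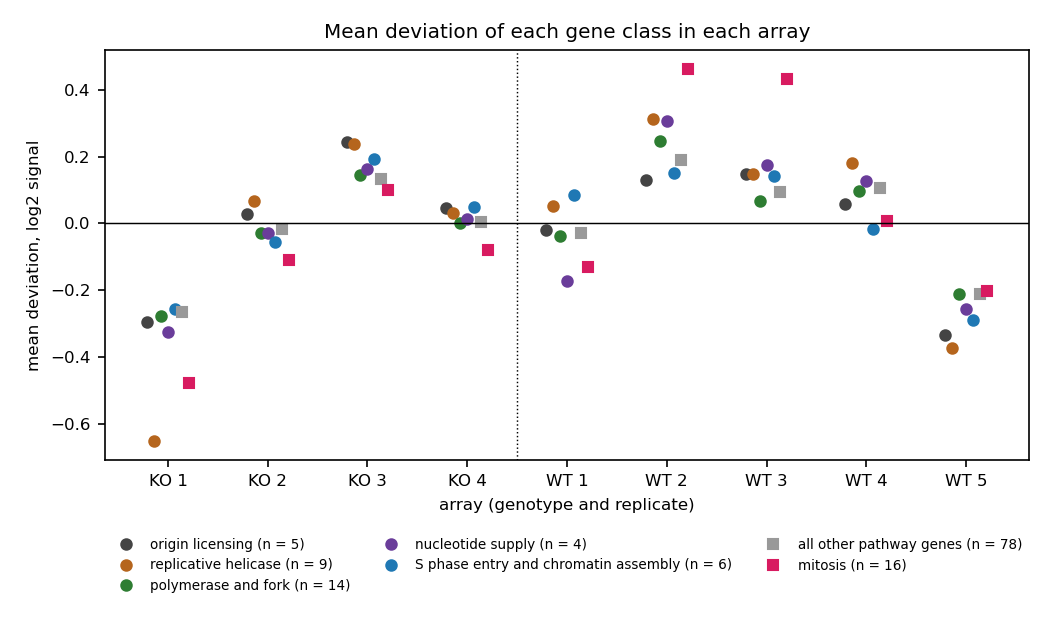
Mean deviation from the 9-array mean, in log2 signal (vertical axis), of the 5 replication classes (circles), the 78 other pathway genes (grey squares) and 16 mitosis genes (magenta squares) in each array (horizontal axis, KO left of the dotted line). KO array 1 and WT array 5 lie below 0 for all 7 lists, the helicase class reaches -0.65 in KO array 1, and mitosis genes reach 0.46 and 0.43 in WT arrays 2 and 3.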

How the data were processed

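The deposited table held log2 values of 72688 probesets in 9 arrays, 4 KO and 5 WT, used as the authors summarised them with Partek 6.6, per the submitters' processing notes. For background correction, normalization and log base, the method is not given in the sources used here. The log2 reading rests on the range of the values (1.84 to 19.45). Symbols were updated by Entrez identifier to RefSeq GRCm38.p6. Probesets with exactly 1 symbol were kept, and the brightest stood for each of 30142 genes. The genotypes were tested in R 4.3.3 by limma 3.58.1 (lmFit and eBayes, no covariate, Benjamini-Hochberg over all genes, threshold 0.05, two-sided). Exact two-sided permutation used all 126 ways of labelling 4 of 9 arrays. The replicates are separate mice, their number limits the precision, and the labels name no batch. The median SE of the 38 genes was 0.168.

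The 38 genes and the other lists were chosen with earlier results of these data known. In each class the genes with the brightest probe, the smallest p and the largest difference are given in every array, and for each other pathway list the genes with the smallest p. Alternatives were other normalization and centring, a filter on dim genes, the mean of probesets, trend and robust moderation, array weights, a replicate block, left-out arrays and permutation per gene. The fit was tested on simulated data.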

Additional observations from a re-analysis of the deposited data

Results flagged for a closer look

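In 76 groups of arrays (38 genes in KO and in WT), Dixon's criterion set 16 values apart from the rest of their group. Chance sets apart about 1 in 20 where groups are independent and values are not tied. These genes share the same arrays and some hold tied values, so the count cannot be measured against that rate. KO array 1 gave 10 of the 16 values. It was set apart below the other KO arrays in Cdc6 (10.07), Mcm2 (11.74), Mcm3 (12.62), Mcm10 (8.46), Gins1 (11.48), Prim1 (10.52), Tk1 (8.04) and Chaf1b (9.16), and above them in Ccne2 (9.99) and Slbp (10.23). The criterion takes the gap to the next value as a share of the range in the group. A small gap can therefore count, such as 0.22 for Cdc6 beside 1.48 for Mcm2. WT array 5 was set apart below the other WT arrays in Orc2 (10.27), Gins2 (9.33) and Lig1 (12.15). Single values elsewhere were Prim1 in WT array 2 (11.59, high), Rfc1 in KO array 4 (11.45, low) and Slbp in WT array 1 (9.70, low, with the other 4 WT arrays all at 9.80).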

How the results depend on the processing

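None of the 38 genes passed an adjusted p of 0.05 in limma or in per-gene permutation under any alternative run, with the smallest adjusted p between 0.665 and 0.964. Over all genes 2 passed with array weights and 0 by permutation per gene. The count of genes lower in KO was 17 with array weights and 13 to 32 with 1 array left out, lowest without KO array 1. With 1 array left out, 0 to 1 genes had an unadjusted p under 0.05: Cdc45 without WT array 5 and Chaf1a without KO array 3. Quantile normalization changed the sign of 6 differences, centring of 6, and leaving out KO array 1 of 13. The median r between members was 0.635 from group means, 0.416 over 7 arrays, 0.778 with centred arrays (0.138 for all pairs) and 0.579 to 0.647 with 1 array left out. With the replicate number as a block, which leaves WT array 5 without a partner, 4 genes had an unadjusted p under 0.05 in limma (Cdc45, Gins1, Mcm10 and Tk1; 4.81% of all genes did) and 32 were lower (48.4% of genes above background were). The labels do not say that the numbers pair mice, and same-numbered arrays had correlations of -0.178, 0.146, -0.0135 and 0.27. With 4 and 5 arrays, the 95% interval reached beyond 0.5 from 0 in 20 genes.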
